A study of Mus musculus with 8 samples.

Results

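Wwox, Erbb4, Slc4a4, Carmil1 and Camk1d are 5 long genes over which fewer NONO peaks were called in mouse liver nuclei 2 h after re-feeding than 10 h after it. They were picked from the measured values for having fewer peaks free of IgG signal at 2 h than at 10 h, and all 5 also had fewer at 2 h than in the fasted state. They are 5 of 9775 genes that carried at least 1 such peak at any time, and of 32106 annotated genes. Peak numbers at 2 h, 10 h and fasted therefore describe the choice and are no test of it.

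RNA bound by NONO was immunoprecipitated from nuclei and sequenced beside the input RNA of the same lysate. All livers came from wild type C57BL/6 mice, 14 weeks old, housed under a 12 h light and 12 h dark cycle and trained to eat in the dark phase. The groups were fasted (zeitgeber time 10, in hours after lights on), 2 h re-fed (zeitgeber time 14) and 10 h re-fed (zeitgeber time 22), so feeding and clock time moved together and cannot be told apart. An IgG immunoprecipitate, whose feeding state the labels do not give, served as the control. Each of the 8 libraries pooled 2 experiments and each group had 1 library. No difference below has a replicate error or a test. In whole liver, fewer cells of a type and less RNA per cell cannot be told apart.

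NONO is a nuclear protein that binds RNA and DNA, pairs with related proteins such as SFPQ, and belongs to paraspeckles, nuclear bodies that form on Neat1 RNA. It also meets transcripts while they are being made, and nuclear RNA holds much intron sequence of genes in transcription. Signal over introns in such an experiment can reflect the amount of unspliced RNA as well as binding. Wwox encodes an oxidoreductase with WW domains and spans a common fragile site. Erbb4 encodes a receptor tyrosine kinase for neuregulins. Slc4a4 encodes a sodium bicarbonate cotransporter. Carmil1 encodes a regulator of actin capping protein. Camk1d encodes a calcium/calmodulin-dependent kinase.

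All 5 are long genes. In mm10 coordinates with the GENCODE M21 annotation, Wwox (ENSMUSG00000004637) lies at chr8:114439655-115352708 on the plus strand, and its intron 8 takes 639 kb, or 70.0%, of its 913 kb. Erbb4 (ENSMUSG00000062209) lies at chr1:68032186-69108059 on the minus strand, with a first intron of 367 kb in 1080 kb. Slc4a4 (ENSMUSG00000060961) lies at chr5:88886818-89239653 on the plus strand and has its 353 kb divided among 25 introns, the longest being intron 3 with 73.3 kb. Carmil1 (ENSMUSG00000021338) lies at chr13:24012344-24280795 on the minus strand, where intron 2 takes 98.2 kb of 268 kb. Camk1d (ENSMUSG00000039145) lies at chr2:5293457-5714515 on the minus strand, where intron 1 takes 148 kb of 421 kb. Exons make up between 0.246% (Wwox) and 2.25% (Slc4a4) of the gene bodies.

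Start-site sequence shows where the peaks stand relative to the promoters. RefSeq windows (GRCm38.p6) of 250 bases before to 50 bases after a start were at hand for 3 of the 5 genes, 1 for Erbb4 and 2 each for Slc4a4 and Camk1d, whereas Wwox and Carmil1 are named only. The Erbb4 window and the inner Camk1d window are shown because a 2 h peak overlapped them. The inner Slc4a4 window is shown because its start divides the gene into 2 stretches, which differ in length as well as in peak number. Each window is written 5′ to 3′ on the gene's strand, and capitals mark a match to CCAAT or GGGCGG on either strand, ATTGG and CCGCCC being the reverse strand letters.
Erbb4, chr1:69108010-69108309, minus strand: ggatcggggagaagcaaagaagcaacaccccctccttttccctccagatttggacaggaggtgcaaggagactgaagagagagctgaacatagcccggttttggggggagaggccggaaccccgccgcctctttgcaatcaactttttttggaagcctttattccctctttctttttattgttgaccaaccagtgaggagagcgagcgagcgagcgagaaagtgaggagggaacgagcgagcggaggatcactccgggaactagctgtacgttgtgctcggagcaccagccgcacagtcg
Camk1d inner start, chr2:5675997-5676296, minus strand: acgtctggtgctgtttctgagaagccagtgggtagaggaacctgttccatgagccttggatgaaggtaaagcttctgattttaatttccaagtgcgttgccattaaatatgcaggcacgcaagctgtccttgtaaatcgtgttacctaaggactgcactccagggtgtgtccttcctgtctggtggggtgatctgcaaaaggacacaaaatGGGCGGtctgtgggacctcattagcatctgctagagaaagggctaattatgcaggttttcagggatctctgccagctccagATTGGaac
Slc4a4 inner start, chr5:89027716-89028015, plus strand: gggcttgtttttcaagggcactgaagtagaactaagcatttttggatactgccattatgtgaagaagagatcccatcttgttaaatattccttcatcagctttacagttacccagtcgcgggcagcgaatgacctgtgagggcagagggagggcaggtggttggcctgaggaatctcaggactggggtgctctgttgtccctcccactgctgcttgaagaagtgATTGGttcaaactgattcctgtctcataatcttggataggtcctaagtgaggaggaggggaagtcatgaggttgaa
The Erbb4 window held none of the 4 motifs searched on both strands, which were the E-box CACGTG, the TATA box TATAAA, the CCAAT box with those letters and the GC box GGGCGG, none of which overlapped another in the printed windows, and 55.3% of its bases were G or C. The inner Camk1d window held 1 CCAAT and 1 GGGCGG match and the inner Slc4a4 window 1 CCAAT match. Over all 32851 RefSeq windows of this length, 37.4% held CCAAT, 35.7% GGGCGG, 13.6% TATAAA and 7.15% CACGTG, so these matches are common.

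The libraries held 18275033 to 21091048 tags. Listed peaks had at least 2-fold over input. The file headers give a tag threshold of 11 in the NONO libraries and 8 in the IgG library, which equals 5.23 (fasted), 5.22 (2 h), 6.02 (10 h) and 4.21 (IgG) tags per 10000000 library tags. Some listed peaks lie below it, 51 fasted, 353 at 2 h, 190 at 10 h and 741 in IgG, with a lowest value of 3.16 normalised tags. The lists held 38209 (fasted), 61737 (2 h), 50609 (10 h) and 55946 (IgG) peaks, so the 2 h list was the longest while it held the fewest peaks over these 5 genes. A single peak took 37.5% of the IgG library. Hepatocyte markers were the most tagged marker list in every NONO library, with 3938 normalised tags fasted, 8890 at 2 h and 13902 at 10 h over 6 genes, against 14741 in IgG. Most of these came from Cps1 alone, with 3763, 6906 and 11169 tags at the 3 times. Alb and Cyp2e1 had NONO peaks at 10 h only, Apoa1 had no peak anywhere and Ttr had none in a NONO list. Endothelial markers summed to 523, 1237 and 1098 tags at the same times through Stab2 and Ptprb, with Lyve1 and Pecam1 at 0. Kupffer cell markers held 23.8, 6.16 and 60.8 tags at the 3 times, lowest at 2 h, against 3.69 in IgG. Stellate cell markers held 8.08, 20.9 and 59.7 tags, against 2188 in IgG. Neuron markers held 0, 0 and 16.9 tags, and the 4 cholangiocyte markers had no peak in any list.

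A NONO peak that no IgG peak overlapped by 1 bp is called IgG-free here. Over the 5 genes together there were 199 IgG-free peaks in the fasted list, 87 at 2 h and 276 at 10 h. Wwox carried 47, 9 and 65 of them in that order of time. Erbb4 carried 73, 34 and 73, with as many at 10 h as in the fasted liver. Slc4a4 carried 24, 19 and 62, so its 2 h number stood close to the fasted number and far under the 10 h number. Carmil1 carried 37, 15 and 35. Camk1d carried 18, 10 and 41.

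The amount of RNA in the peaks is the sum of normalised tags (tags per 10000000 library tags) over all peaks of a gene, those that meet IgG included. Wwox summed to 955 tags fasted, 95.3 tags at 2 h and 1651 tags at 10 h, beside 264 tags in its IgG peaks. At 2 h its sum was the lowest of the 4 libraries. Carmil1 summed to 1217, 243 and 805 tags at the 3 times, beside 75.2 in IgG. Carmil1 was the only one of the 5 with its highest sum in the fasted liver. Erbb4 summed to 2155, 1039 and 3186 tags, beside 909 in IgG, so the 2 h sum stood near the IgG sum. Camk1d summed to 581, 356 and 3089 tags, beside 1037 in IgG. The fasted and 2 h sums of Camk1d were both below its IgG sum. Slc4a4 summed to 343, 410 and 1744 tags, beside 295 in IgG. For Slc4a4 the tags at 2 h were thus not below the fasted tags, and a loss of signal at 2 h describes this gene only against 10 h.

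**Figure D1:**
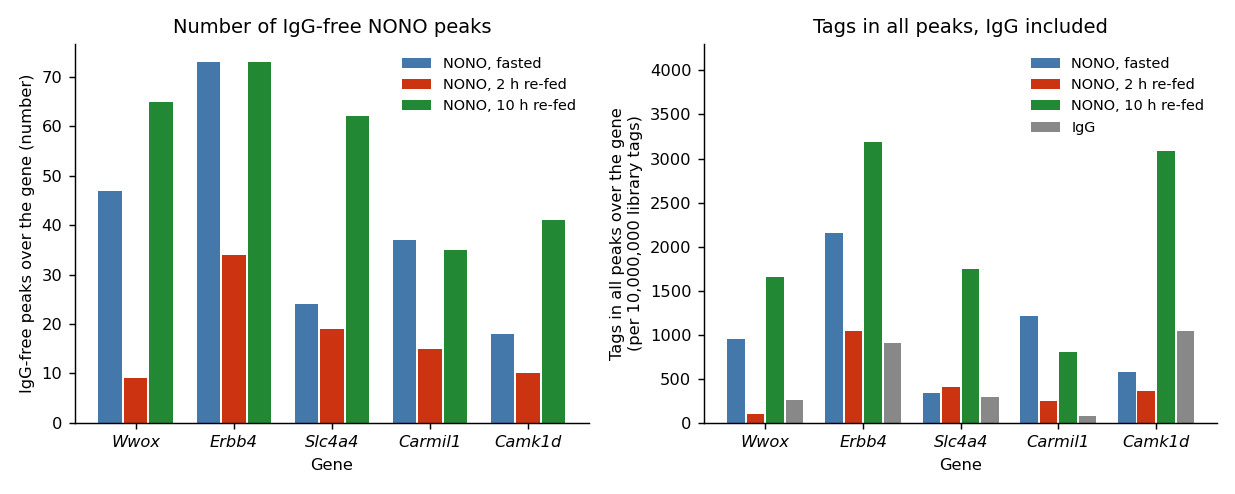
IgG-free NONO peaks (left, number) and normalised tags in all peaks with those that meet IgG (right, tags per 10000000 library tags) over each of the 5 genes, 1 library per bar and no error bars. The 2 h bar is the lowest NONO bar in peak number for all 5 genes, from 9 over Wwox to 34 over Erbb4, and in tags for 4 of the 5, since Slc4a4 had 410 tags at 2 h and 343 tags fasted.

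The IgG-free number at 10 h was 7.22 times that at 2 h for Wwox, 4.10 times for Camk1d, 3.26 times for Slc4a4, 2.33 times for Carmil1 and 2.15 times for Erbb4. All 5 passed 2-fold, as did 4.30% of 2140 genes with at least 10 IgG-free peaks over both lists. This contrast chose the genes, and nothing is read from the 5 of 5. Among peaks of at least 3-fold over input, Wwox alone of the 5 passed 2-fold (43 peaks at 10 h and 9 at 2 h), with 48 and 31 for Erbb4, 30 and 16 for Slc4a4 and 23 and 14 for Carmil1. With peaks that meet IgG kept, Erbb4 (101 at 10 h and 63 at 2 h) and Carmil1 (39 and 20) did not pass, and Erbb4 did not where an IgG peak had to cover 50% of a NONO peak to remove it. In tags the ratio of 10 h to 2 h was 17.3 for Wwox, 8.68 for Camk1d, 4.26 for Slc4a4, 3.31 for Carmil1 and 3.07 for Erbb4, and 5.64% of 3032 genes passed 2-fold. At 3-fold over input 1 of the 5, Wwox, passed 2-fold in tags, and in covered bp Erbb4 did not pass. Against the fasted list, 3 of 5 genes (Wwox, Erbb4, Carmil1) had 50% or less of the fasted IgG-free number at 2 h, beside 2.63% of 1979 genes. At 3-fold over input that held for Wwox alone, with 9 at 2 h and 38 fasted, against 31 and 33 for Erbb4 and 14 and 18 for Carmil1. With peaks that meet IgG kept, or an IgG peak over 50% of the NONO peak required, Erbb4 was again above 50%. With lists of equal length, or peaks joined within 5000 bp, all 5 were at 50% or less. Equal length cuts the 2 h list from 61737 to 38209 peaks and leaves the fasted list whole. Against fasted it can thus only lower 2 h numbers and tags. The share of all genes was not counted under any alternative setting, so nothing is read from the member counts there. The same 3 genes had 50% or less of the fasted tags, beside 2.92% of 2740 genes, with Wwox alone at 3-fold and Erbb4 above 50% in covered bp and after subtraction of input. With lists of equal length, or in IgG-free peaks alone, Camk1d was at 50% or less too. Both comparisons share the 2 h library, so they are not independent. At 2 h, 3 of 5 had at most 50% of both other times, beside 1.10% of 1826 genes.

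At 10 h against fasted the 5 genes split. That contrast leaves out the 2 h library but uses the 10 h numbers that helped to choose the genes. Slc4a4 had 2.58 times and Camk1d 2.28 times as many IgG-free peaks, whereas the ratio was 1.38 for Wwox and 0.946 for Carmil1, and Erbb4 had 73 at both times. The 2 of 5 past 2-fold stand beside 16.1% of 1700 genes. In tags the ratio was 5.31 for Camk1d and 5.09 for Slc4a4, then 1.73 for Wwox, 1.48 for Erbb4 and 0.661 for Carmil1, with 2 of 5 past 2-fold beside 28.7% of 2485 genes. In the full lists Camk1d and Slc4a4 were thus mainly high at 10 h. Wwox, Erbb4 and Carmil1 were low at 2 h, with fasted and 10 h numbers nearer to each other. At 3-fold over input Camk1d turned, with 9 IgG-free peaks at 10 h and 18 fasted, and 123 and 396 tags in all peaks. Slc4a4 then had 30 IgG-free peaks at 10 h and 22 fasted, so neither gene passed 2-fold.

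Peak numbers depend on the calling, and for Camk1d the order itself turned. When only peaks of at least 3-fold over input were counted, Camk1d had 9 IgG-free peaks at 10 h and 10 at 2 h, and its tags in all peaks were 123 at 10 h and 267 at 2 h. All its peaks together had a median fold of 2.30 at 10 h in the authors' values, against 4.76 at 2 h. With every NONO list held to the length of the shortest by score, the 5 genes together had 188 IgG-free peaks at 10 h against 14 at 2 h. At 3-fold they had 153 against 80.

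Along the genes, with neighbouring peaks counted separately, a larger share of the 2 h peaks than of the others stood near the 5′ ends. In the first 10% of the gene bodies the 5 genes together had 25 IgG-free peaks fasted, 29 at 2 h and 30 at 10 h. Beyond the first 10% they had 174, 58 and 246. The first 10% thus held 12.6% of the fasted peaks (95% exact Clopper-Pearson interval 8.30 to 18.0, counting error only), 33.3% of the 2 h peaks (23.6 to 44.3) and 10.9% of the 10 h peaks (7.45 to 15.2). In the 699 other genes with at least 30 IgG-free peaks over the 3 times, the share was 9.96%, 10.9% and 9.97%. The 10 h number was 1.03 times the 2 h number in the first 10% and 4.24 times beyond it, whereas in the other genes these ratios were 0.718 and 0.797. The 87 other genes that also had at least 2 times as many IgG-free peaks at 10 h as at 2 h had 8.64% (45 of 521), 13.2% (49 of 372) and 10.4% (121 of 1162) in the first 10%. The difference in position was not tested, and the IgG list also had 19.7% of its peaks over these 5 genes (39 of 198) in the first 10%. Erbb4 alone gave 16 of the 29 peaks at 2 h. With peaks joined within 5000 bp, the first 10% held only 2 of 26 joined peaks at 2 h and 3 of 76 at 10 h. The intervals above treat neighbouring peaks as separate counts.

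Equal peak number at the 5′ end did not mean equal tags. The IgG-free peaks of the first 10% summed to 695 tags fasted, 399 at 2 h and 750 at 10 h, and those beyond it to 3079, 518 and 5614. The tag ratio of 10 h to 2 h was 1.88 in the first 10% and 10.8 beyond it. The peak numbers near the start were close at all 3 times in the full lists, but their tags were lowest at 2 h. With lists of equal length the numbers were not close, with 19 peaks at 10 h and 6 at 2 h in the first 10%, and 169 and 8 beyond it. At 3-fold over input the first 10% held 17 peaks at 10 h and 25 at 2 h, so the order of those numbers turned, while beyond it the 10 h number stayed higher, at 136 against 55.

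**Figure D2:**
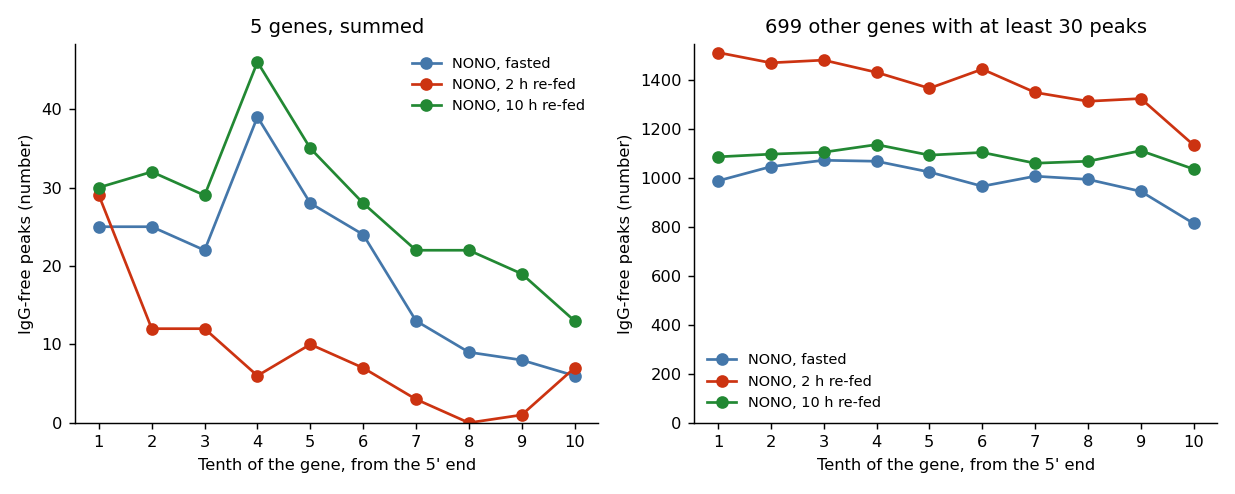
IgG-free NONO peaks in 10 equal bins of the gene body from the 5′ end (number), summed over the 5 genes (left) and over 699 other genes with at least 30 such peaks (right), 1 line per library. In the 5 genes the 2 h line starts at 29 beside 25 (fasted) and 30 (10 h), stands at 12 in the next bin and is 0 in bin 8, whereas in the other genes the 2 h line lies above both other lines in every bin.

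Erbb4 had more peaks in its first 10% than any other of the 5 genes at all 3 times, but that stretch was also the longest. Its first 10% (108 kb) had 15 IgG-free peaks fasted, 16 at 2 h and 13 at 10 h, while the remainder had 58, 18 and 60. Intron 1 held 43, 27 and 44 of its peaks, intron 2 held 16, 4 and 24, and intron 3 held 10, 1 and 4. At 2 h, 27 of 34 Erbb4 peaks (79.4%) thus lay in intron 1, beside 58.9% fasted and 60.3% at 10 h, and 61 of its 62 IgG peaks lay there too. The last 40% of the gene held 4, 1 and 1 peaks. At 2 h a peak of 10.4 tags and 3.49-fold (chr1:68032174-68032816) overlapped exon 28, the last exon. A 2 h peak of 6.16 tags and 4.13-fold (chr1:69108048-69108548) overlapped the promoter window shown above, and neither the fasted, the 10 h nor the IgG list had a peak there. Both are small peaks, the second near the calling threshold. Without Erbb4, the other 4 genes had 17 IgG-free peaks at 10 h and 13 at 2 h in the first 10%, and 186 at 10 h and 40 at 2 h beyond it.

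Slc4a4 had more peaks near its 5′ end at both re-fed times than in the fasted liver. Its first 10% (35.3 kb) held 1 IgG-free peak fasted, 6 at 2 h and 9 at 10 h, with 15.2, 110 and 255 tags. Intron 1 (47.4 kb) held 2, 8 and 11 peaks. The last 40% held 8, 2 and 29, so peaks at 2 h were sparse toward the 3′ end, where those at 10 h were many. The inner RefSeq start lies 141 kb into the gene of 353 kb, so the downstream stretch is the longer one. Upstream of it there were 11 peaks fasted, 11 at 2 h and 24 at 10 h, and downstream 13, 8 and 38. No peak of any list overlapped the printed inner window. The 10 h peaks extended as far as intron 24.

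Wwox had few peaks in its first 10% (91.3 kb) at any time, with 4, 2 and 2. Its low number at 2 h lay in intron 8, with 41, 7 and 53 peaks, and intron 5 held 5, 2 and 12. In the last 40% there were 7 peaks fasted, 0 at 2 h and 14 at 10 h. Carmil1 had 5, 5 and 6 in its first 10% (26.8 kb), 29, 6 and 27 in the middle 80%, and 3, 4 and 2 in the last 10%. At 2 h the Carmil1 peaks thus stood toward both ends of the gene. Camk1d had no IgG-free peak in its first 10% (42.1 kb) at any time, where 10 IgG peaks lay. All its IgG-free peaks, 18 fasted, 10 at 2 h and 41 at 10 h, lay downstream of its inner RefSeq start, 38.5 kb from the gene's start. The 2 h peak over the printed inner Camk1d window (chr2:5676025-5676973, 37.5 tags, 2.21-fold) met an IgG peak. The last 40% of Camk1d held 4, 3 and 20, with introns 5 to 8 reached at 10 h alone among the 4 lists.

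**Figure D3:**
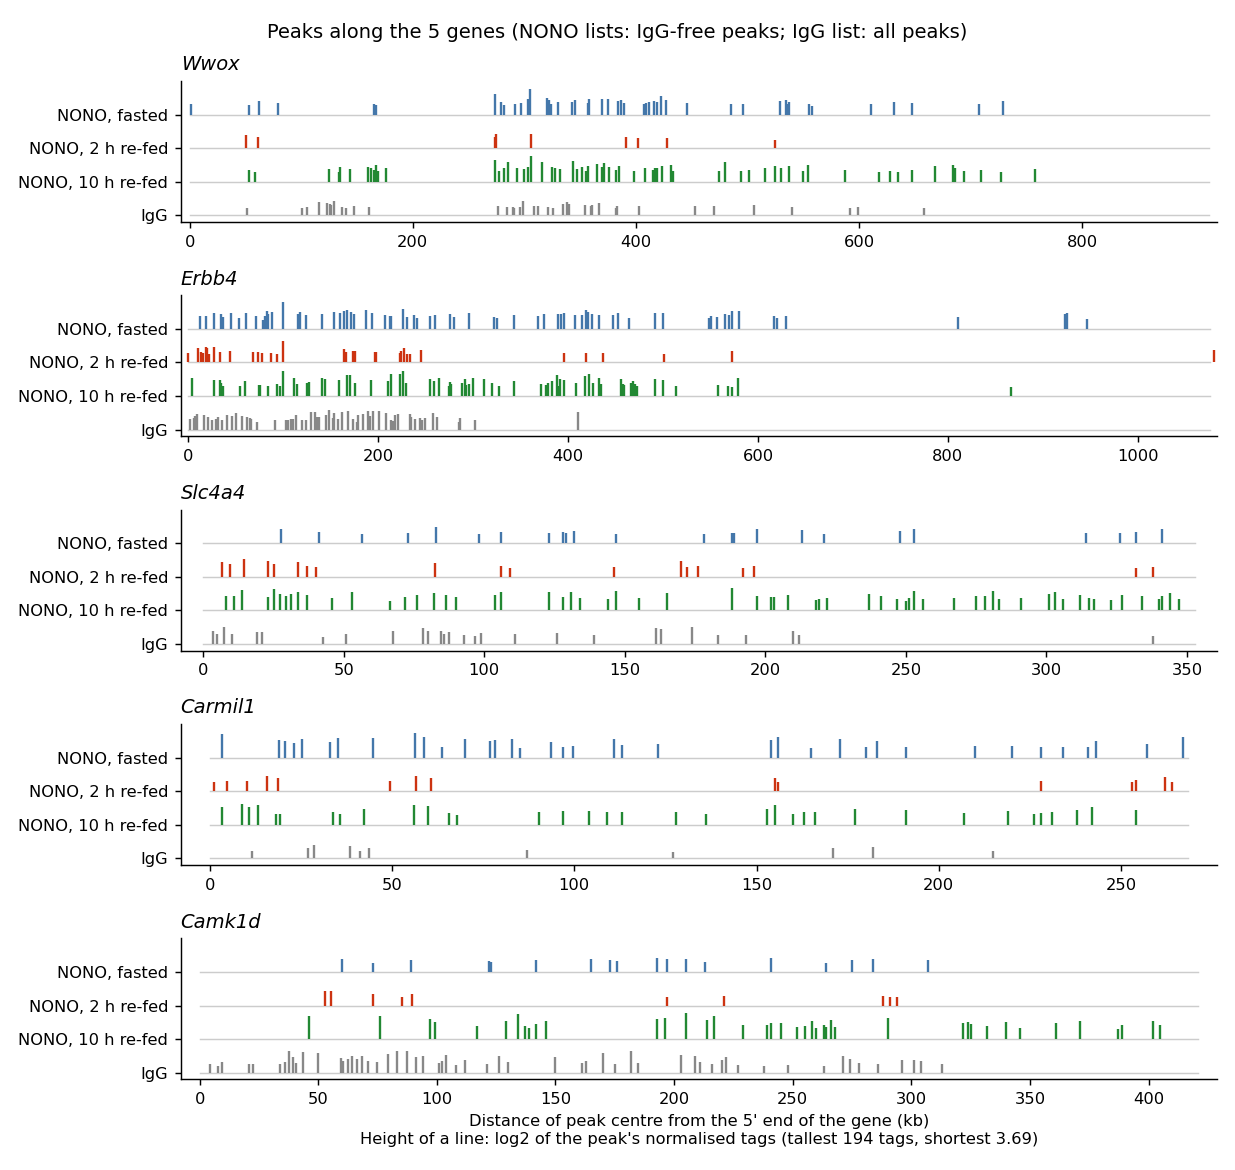
Peaks along each of the 5 genes by distance of the peak centre from the 5′ end (kb), with IgG-free peaks for the NONO lists and all peaks for IgG, and line height giving log2 of normalised tags. At 2 h the lines gather between the start and 245 kb in Erbb4 and toward both ends of Carmil1, and 7 lines stand in intron 8 of Wwox.

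Nearly all peaks were intronic. IgG-free peaks that overlapped an exon numbered 4 of 199 fasted (2.01%), 2 of 87 at 2 h (2.30%) and 2 of 276 at 10 h (0.725%). Other annotated genes inside the 5 bodies held few peaks. Gm16076, a sense intronic transcript near the start of Erbb4, held 2, 4 and 1 peaks at the 3 times and 5 in IgG, and since both strands were called together its peaks cannot be given to either gene.

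Some regions were called at every time and changed in tags. The most tagged IgG-free peak of Wwox, in intron 8 at about 305 kb from the start (chr8:114743646-114746618 in the fasted list), had 149.8 tags and 3.56-fold over input fasted. The peak there had 14.7 tags and 4.22-fold at 2 h, and 145.6 tags and 3.89-fold at 10 h. The 2 h peak was thus far lower in tags than the others and not lower in fold over input. The most tagged IgG-free peak of Erbb4, in intron 1 at 100 kb (chr1:69006144-69009061 fasted), had 194 tags and 5.59-fold fasted, 68.3 tags and 7.22-fold at 2 h, and 142.3 tags and 6.26-fold at 10 h. In Carmil1, the intron 2 peak at 56.3 kb (chr13:24223692-24225366 fasted) had 121.7 tags fasted, and the peaks meeting it had 18.0 tags at 2 h and 44.3 at 10 h. These 3 regions had no IgG peak, and each was lowest at 2 h. They are the most tagged fasted regions of genes chosen for few 2 h peaks, so they are a description only. Widths differed too, with 924 bp in Wwox at 2 h, 2972 bp fasted and 3090 bp at 10 h. Not every region called at all 3 times was lowest at 2 h. An Erbb4 intron 1 peak (chr1:69089210-69090172) had 20.4 tags at 2 h, where the peaks meeting it had 11.9 fasted and 44.3 at 10 h.

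The most tagged 10 h peaks of Slc4a4 and Camk1d did not meet peaks at both other times. The highest IgG-free peak of Slc4a4 at 10 h, in intron 6 at 188 kb, had 81.5 tags at 2.18-fold. It met 2 fasted peaks of 16.2 tags together and no 2 h peak. At 14.5 kb in intron 1, Slc4a4 had 29.4 tags (2.36-fold) at 2 h and 54.2 (2.53-fold) at 10 h in overlapping peaks, and no fasted peak. The highest IgG-free peak of Camk1d at 10 h, in intron 2 at 205 kb (chr2:5508288-5510299), had 145.6 tags at 2.15-fold, met a fasted peak of 11.9 tags and met no 2 h peak. The next 2 in Camk1d, in intron 1, had 129.1 tags at 2.12-fold and 96.3 tags at 2.08-fold and met neither a fasted nor a 2 h peak. These Camk1d peaks, and the highest Slc4a4 peak at 10 h, stood just above the 2-fold limit of calling.

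The 10 h regions were seldom those of 2 h. Of 276 IgG-free peaks at 10 h over the 5 genes, 36 (13.0%, 9.31 to 17.6) met a 2 h peak of any kind, against 48.9% in the 699 other genes. With fasted peaks the share was 74 of 276 (26.8%), against 28.6%. The low share with 2 h follows from the few 2 h peaks that chose the genes. Seen from the fasted list, 86 of 199 peaks (43.2%, 36.2 to 50.4) met a 10 h peak, against 34.2% in the other genes, and 33 (16.6%) met a 2 h peak, against 47.7%. That low fasted share with 2 h follows from the same few 2 h peaks. Of the 276 regions at 10 h, 53 met a fasted but no 2 h peak, 21 met both, 15 met a 2 h peak alone and 187 met neither. The number that met neither was not counted in the 699 other genes, so nothing about these 5 genes is read from it. By gene, the 53 were 17 in Wwox, 16 in Erbb4, 9 in Slc4a4, 6 in Camk1d and 5 in Carmil1.

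Input RNA under the peaks moved with the NONO signal. Over all peaks of the 5 genes, the immunoprecipitate had 26.6 tags per kb fasted, 16.0 at 2 h and 30.5 at 10 h, and the input in the same peaks had 9.21, 4.37 and 11.8. In the 699 other genes the median density was 26.6, 22.4 and 26.1 tags per kb in the immunoprecipitate and 9.81, 7.72 and 9.60 in the input. For each of the 5 genes the 10 h input density was above the 2 h one, by 4.42 times for Camk1d, 2.62 for Wwox, 2.47 for Erbb4, 2.33 for Slc4a4 and 2.16 for Carmil1, with a median of 1.19 in the other genes. The immunoprecipitate density at 10 h was above that at 2 h by 2.65 times for Camk1d and 1.64 to 1.82 times for the other 4, with a median of 1.14 in the other genes. Input per kb thus differed between these times by more than the immunoprecipitate in all 5 genes. The share of the difference in NONO signal that goes with the amount of nuclear RNA was not tested. Input is known here only inside called peaks, which were called in each library separately.

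**Figure D4:**
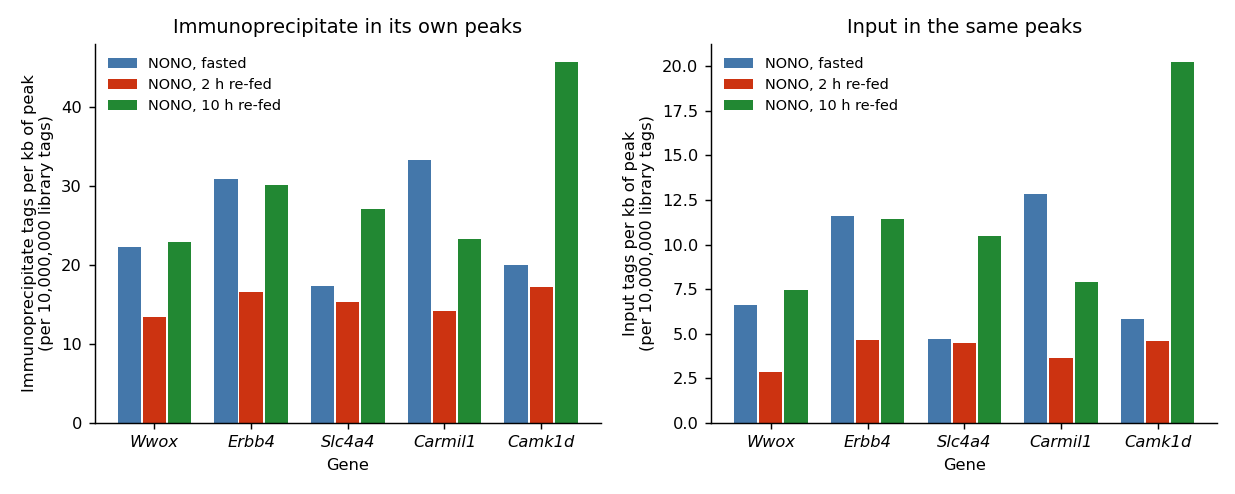
Tags per kb of peak (per 10000000 library tags) over all peaks of each gene, in the NONO immunoprecipitate (left) and in its input over the same peaks (right), 1 library per bar and no error bars. In all 5 genes both densities are lowest at 2 h, and Camk1d at 10 h is highest on both sides, with 45.7 tags per kb in the immunoprecipitate and 20.2 in the input.

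The peaks covered 42.8 kb of Wwox fasted, 7.10 kb at 2 h and 71.9 kb at 10 h, and 69.6, 62.7 and 106 kb of Erbb4. The covered length of Erbb4 at 2 h was thus close to that fasted, with lower density. The median fold over input, the authors' value, was higher at 2 h than at 10 h in all 5 genes, with 3.29 at 10 h and 5.48 at 2 h for Wwox and 3.02 at 10 h and 4.05 at 2 h for Erbb4. For Carmil1 it was 3.32 at 10 h and 4.13 at 2 h, and for Slc4a4 2.90 at 10 h and 3.93 at 2 h. The whole lists lay the same way, with a median fold of 2.84 at 10 h and 3.13 at 2 h, and median tags of IgG-free peaks of 14.2 at 10 h and 12.3 at 2 h.

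Ordered by the difference in IgG-free peak number between 10 h and 2 h, as a percentage of each list, the genes stood at ranks 1 (Wwox, 0.188 points), 2 (Slc4a4, 0.152), 3 (Erbb4, 0.148), 5 (Camk1d, 0.107) and 10 (Carmil1, 0.0743). The genes between them that were not picked were Magi1 (0.115 points), Pde4d (0.0889), Shank2 (0.0888), Robo1 (0.0829) and Npas2 (0.0752). Magi1, a scaffold protein of cell junctions, had 43, 56 and 81 IgG-free peaks at the 3 times, so it was not lower at 2 h than fasted. Pde4d, a cyclic AMP phosphodiesterase, had 34, 12 and 37, a course like that of Carmil1 and Erbb4. Npas2, a transcription factor of the circadian clock, had 0, 0 and 23. Shank2 had 2, 1 and 28 and Robo1 had 5, 13 and 36.

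The share of a gene's IgG-free peaks that came from the 2 h list was 7.44% for Wwox, 14.5% for Camk1d, 17.2% for Carmil1, 18.1% for Slc4a4 and 18.9% for Erbb4. Over the 699 other genes its median was 40.0%, with quartiles of 34.6% and 45.2%, and the 2 h list made up 40.1% of all IgG-free peaks. The 5 other genes with the lowest shares were Ccdc171 (2.94%), Shank2 (3.23%), Syne1 (9.09%), Ldlrad4 (9.30%) and Esrrg (10.5%), each measured over the 3 NONO libraries. Ccdc171 had 21, 1 and 12 peaks and Ldlrad4 18, 4 and 21, so both were low at 2 h on either side. Syne1, which encodes a nuclear envelope protein, had 6, 3 and 24, and Esrrg, an orphan nuclear receptor, 11, 4 and 23. The 5 genes were thus not the lowest by this measure, and Wwox stood at rank 3.

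**Figure D5:**
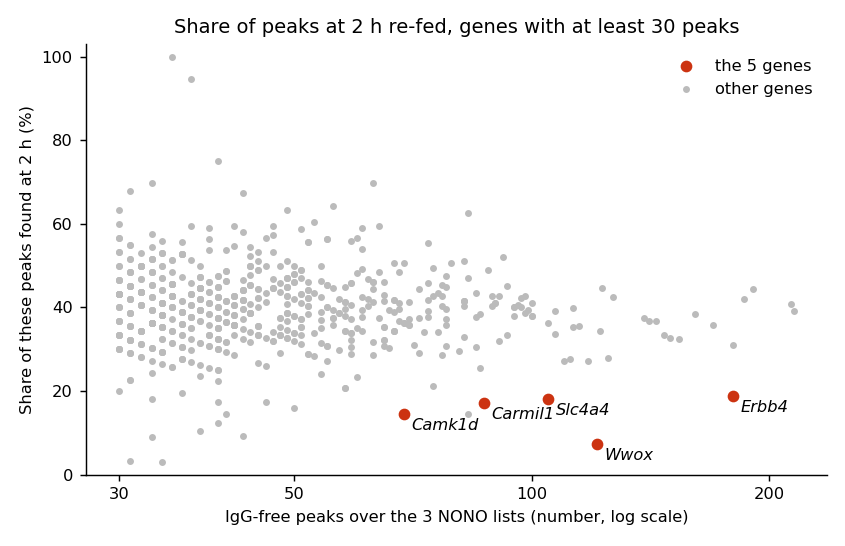
Share of a gene's IgG-free NONO peaks that came from the 2 h list (%) against its number of such peaks over the 3 times (log axis), for the 5 genes and 699 other genes with at least 30. The 5 genes lie between 7.44% and 18.9%, below the lower quartile of 34.6% of the other genes.

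Some genes related to the 5 by family carried IgG-free peaks, as did 9775 of 32106 annotated genes. Of 14 other ErbB receptors and ligands, 3, 3 and 4 had an IgG-free peak at the 3 times. Among them Egfr, the receptor for epidermal growth factor, had 4, 10 and 12, and Nrg4, a neuregulin that binds ErbB4, had 4, 8 and 3. In tags over all peaks Egfr was highest at 2 h, with 6180, 53669 and 4054, beside 8416 in IgG. Erbb3, another receptor of the family, had 1, 0 and 1, too few to order. Of 9 other SLC4 transporters Slc4a7, another sodium bicarbonate cotransporter, had 9, 17 and 5. Among 6 genes of the CARMIL and capping protein list, the subunit genes Capza1, Capza2 and Capzb had 3, 5 and 4, then 6, 5 and 5, then 3, 8 and 1. Of 10 other calcium/calmodulin kinase genes, Camk2d had 13, 19 and 18 and Camk2g 3, 0 and 2. None of the genes in these 4 lists that had at least 10 IgG-free peaks over both times (2, 1, 1 and 1 genes) reached 2 times the 2 h number at 10 h. The share of peaks from 2 h, over the genes of each list with at least 10 IgG-free peaks in all, had a median of 45.9% for 2 ErbB genes and 41.7% for 3 capping protein genes, and was 54.8% for Slc4a7 and 38.0% for Camk2d. Erbb3 and Camk2g fall under no naming rule and were picked with their values known.

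Very long genes of fragile sites are the kind of locus to which Wwox belongs. Of 12 such genes besides Wwox, 7 had an IgG-free peak at each time, 6 had at least 10 over 2 h and 10 h, and 0 of those 6 reached 2 times the 2 h number at 10 h. Fhit, a gene at another fragile site, had 9, 36 and 16, highest at 2 h. Immp2l, a mitochondrial peptidase gene, had 49 at every time. Naaladl2 had 81, 78 and 27, with its lowest number at 10 h. Dmd, the dystrophin gene, had 12, 14 and 9, Exoc4 23, 39 and 34, and Macrod2 6, 5 and 2. The median share from 2 h in this list was 40.0%, the same as in the 699 other genes, against 7.44% for Wwox.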

How the data were processed

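Peak lists of 4 immunoprecipitates, each called against its own input, were analysed. Per the submitters' processing notes, FastQC 0.11.2, STAR 2.4.0k, HOMER and mm10 were used. HOMER peaks were called by the authors at 2-fold over input, from 500 bp windows stitched within 1000 bp with strands pooled, per the file headers. The deposited signal is normalised tags, that is tags per 10000000 library tags, and the deposited input tags were brought to the same scale here. The authors' ratio of immunoprecipitate to input is called fold. The deposited score is HOMER's peak score and was used only to rank peaks within a list. Each library pools 2 experiments, per the series design, so no p-value was computed.

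A peak counted for each GENCODE M21 gene body (21951 protein-coding and 10155 non-coding genes) that it overlapped by 1 bp. Intervals are exact Clopper-Pearson intervals at 95%, which cover counting error only. Genes entered a count of 2-fold differences with at least 10 peaks over both lists. The members, the related-gene and marker lists and the alternatives were chosen with earlier results of these data known. Named genes are the 5 members, the 5 next by drop at 2 h, the 5 with the lowest share at 2 h and list genes with at least 10 IgG-free peaks. Of these, 1 is not reported here. Promoter windows came from RefSeq, and peak sequences are not given here. Overlap counting was tested on simulated data, where 1500 of 1500 planted overlaps among 5000 peaks were found. Computation used scipy 1.17.1, pandas 2.3.3, numpy 2.4.6 and Python 3.11.15.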

Additional observations from a re-analysis of the deposited data

How the results depend on the processing

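Values here are the later time as a percentage of the sum of both times. IgG-free peaks of the 5 genes at 10 h against 2 h made 76.0% (71.3 to 80.3), and 93.1% with lists of equal length, 65.7% at 3-fold over input and 69.8% with peaks that meet IgG kept. For 2 h against fasted they made 30.4%, and 6.57%, 38.3% and 37.0% under the same 3 settings, 24.1% with peaks joined within 5000 bp and 22.8% as a share of the list. Tags at 10 h against 2 h made 83.0%, and 92.2% with equal lists, 63.4% at 3-fold, 88.0% as a share of tags in peaks, 87.4% in IgG-free peaks alone, 80.5% minus input and 71.9% in covered bp. Tags at 2 h against fasted made 29.0%, and 13.0%, 39.8%, 15.4%, 19.5%, 31.2% and 40.4% in the same order. No sum over the 5 genes changed direction in these settings.

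The split at the first 10%, and its alternatives, were chosen after seeing the data. In the first 10%, 10 h against 2 h made 50.8% (37.5 to 64.1), 76.0% with equal lists and 40.5% at 3-fold, which turned the order. Beyond it the value was 80.9%, and 95.5% with equal lists, 71.2% at 3-fold, 73.9% with IgG kept and 75.3% with peaks joined. Peaks joined gave 60.0% (3 against 2 peaks) in the first 10%. Single genes kept their direction in 144 of 150 alternatives, and Slc4a4 peaks at 2 h against fasted were level (31 each) with IgG kept. Camk1d turned at 3-fold, to 47.4% in peaks and 31.5% in tags at 10 h against 2 h. Slc4a4 tags at 2 h against fasted, above 50% otherwise, turned to 34.3% with equal lists, 34.7% as a share of tags in peaks and 47.6% in IgG-free peaks. The cause was not tested. No paired analysis was possible because no group holds more than 1 library. Depth limits small peaks: the smallest 2 h peak over these genes had 4.74 tags, under the threshold in the header, and input under such peaks is a few tags.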
